A study of Mus musculus with 6 samples.

Results

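Rtn2, Ank1, Ank2, Tbx6 and Cpeb3 are protein-coding genes best known from tissues other than blood lymphocytes. They were taken from the genes listed as recovered with METTL3 in mouse natural killer (NK) cells, because they had no read in any of 3 input libraries and reads in at least 2 of 3 METTL3-RIP libraries. They are 5 of 2652 listed genes. By the numbers alone, 165 listed genes (6.22%) met this rule, 55 of them protein-coding (2.89% of 1903), and the 5 were picked from these 55 for their known tissue. The level of a gene in METTL3-RIP against input therefore chose them, and those levels are given as a description and not as a test of the 5 genes. All libraries were made from NK cells of the spleen of WT (wild-type) C57BL/6 mice. The mice, by the study's methods, had been injected with the pLIVE-IL-15 plasmid to expand NK cells, which were sorted and lysed. The lysate was divided between an anti-METTL3 immunoprecipitation (METTL3-RIP) and an input that was kept aside. There were 3 libraries of each kind. No mock immunoprecipitation was analysed here, and the sources used here do not say whether the libraries came from separate mice.

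METTL3 is the enzyme within a protein complex that writes N6-methyladenosine (m6A) on messenger RNA, mostly at adenosines within the sequence class DRACH and often near stop codons. Rtn2 encodes reticulon 2, a membrane protein that bends the endoplasmic reticulum (ER) into tubules and is known from skeletal muscle and brain. Ank1 and Ank2 encode ankyrins, adaptors that fasten membrane proteins to the spectrin skeleton, Ank1 in red blood cells and Ank2 in heart and neurons. Tbx6 encodes a T-box transcription factor of the early embryo that directs cells to the paraxial mesoderm. Cpeb3 encodes an RNA-binding protein of neurons that recognises cytoplasmic polyadenylation elements and controls translation.

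To show what METTL3 could meet in these transcripts, the DRACH form GGACT was searched on the sense strand of the principal transcript of each gene (GENCODE M21 on GRCm38, DNA letters). All 5 transcripts held it, as did 87.0% of 21866 protein-coding genes, so its presence does not set the 5 apart. The match nearest to the stop codon is printed for each gene with 10 bases on either side, and capitals mark GGACT. A match is a description of the sequence and not a measured METTL3 site.
Rtn2, chr7:19295913-19295937, plus strand: tgagcgacccGGACTacatttccta
Ank1, chr8:23141604-23141628, plus strand: aagagggagtGGACTccagccggac
Ank2, chr3:126928702-126928726, minus strand: agagtcttggGGACTctagcttagc
Tbx6, chr7:126784728-126784752, plus strand: gggacattcgGGACTcagatccaga
Cpeb3, chr19:37087570-37087594, minus strand: cccttgtggtGGACTggcctcataa
The match in Rtn2 lay 131 bases after the stop codon, and those in the other genes lay in the coding sequence. Ank2 and Ank1 had their nearest match close to the stop codon, 64 and 78 bases before its end (counted from the adenosine), whereas Tbx6 and Cpeb3 had it 349 and 688 bases before.

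The deposited values were inferred here to be RPKM, reads of a gene scaled by the length of its exons in kilobases and by the size of the library. All read numbers, intervals and floors below rest on that inference. Library totals recovered from these values lay between 9401509 and 11809744 reads for the immunoprecipitates, and the inputs were deeper, between 14710607 and 15992386. The values of all 5 genes were whole numbers of reads in every library at the annotated exon length. Even read numbers made up 67.2% to 83.7% of values from 1 to 20 reads across libraries, where single reads would give about as many odd as even numbers, so both reads of a pair appear to have been counted in many cases. Intervals below cover counting error only and are too narrow where pairs were counted as 2 reads. All 2143 genes with whole reads at the annotated length had over 1 RPM (the RPKM before it is divided by length) in at least 2 libraries. Of all 2652 listed genes 2643 did, though exon length and so read number is uncertain for the genes outside the 2143. A limit of 1 RPM is thus an inference from the values. A gene at 0 in all inputs could pass such a limit only through METTL3-RIP, and had to be higher there.

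Rtn2 had the most METTL3-RIP reads of the 55 protein-coding genes without input reads. It lies on chromosome 7 from 19282624 to 19296160, plus strand. In METTL3-RIP replicates 1, 2 and 3 its RPKM was 0.789, 1.52 and 1.20, and it was 0 in each input library. Replicate 1 was the lowest, and all METTL3-RIP values lay above input. These values rest on 34, 67 and 65 reads. The exact 95% Poisson interval of replicate 1, 0.546 to 1.10 RPKM, ended below that of replicate 2, 1.18 to 1.93 RPKM. Both intervals take reads as independent and would be wider for read pairs. Mean RPKM was 1.17 ± 0.367 (SD, n = 3), a coefficient of variation of 31.3%, where counting error gives 13.4% if reads are independent and 19.0% if they come in pairs.

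Ank1, the ankyrin of red blood cells, lies on chromosome 8 from 22974844 to 23150497, plus strand. Replicates 1, 2 and 3 of METTL3-RIP had RPKM of 0.409, 0.200 and 0.257, from 52, 26 and 41 reads, and each input library had 0. Here replicate 1 was the highest, the reverse of Rtn2, and all METTL3-RIP values again lay above input. The Poisson interval of replicate 1, 0.305 to 0.536 RPKM, did not meet that of replicate 2, 0.131 to 0.293 RPKM. Both intervals take reads as independent and would be wider for read pairs. Mean RPKM was 0.288 ± 0.108 (SD, n = 3), a coefficient of variation of 37.5%. Counting error gives 15.9% if reads are independent and 22.5% if they come in pairs. Ank1 had fewer reads per base than Rtn2 and a second place by reads among the 55 genes, since its exons are longer.

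Ank2, the ankyrin of heart and neurons, had the lowest mean METTL3-RIP RPKM of all 2652 listed genes. It lies on chromosome 3 from 126921612 to 127499350, minus strand, and spans 578 kb. Its METTL3-RIP values were 0.0365, 0.0178 and 0.0339 RPKM in replicates 1, 2 and 3, and each input value was 0. The values come from 12, 6 and 14 reads over 35004 nt of exons, and all 3 numbers are even, so they may stand for fewer RNA fragments. Mean RPKM was 0.0294 ± 0.0101 (SD, n = 3). Its METTL3-RIP values differed by less than their Poisson intervals, which all overlapped, from 0.0188 to 0.0637, 0.00654 to 0.0388 and 0.0185 to 0.0568 RPKM. Although all METTL3-RIP values lay above 0, the lowest, 0.0178 RPKM, was 6 reads.

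Tbx6, the mesoderm factor, had the highest mean METTL3-RIP RPKM of the 5 genes. It is compact, on chromosome 7 from 126781483 to 126785560, plus strand, with 1804 nt of exons. Tbx6 stood at 2.48, 2.13 and 1.41 RPKM in replicates 1, 2 and 3 of METTL3-RIP, from 42, 37 and 30 reads, and 0 in each input library. Replicate 3 was the lowest, and no METTL3-RIP value overlapped input. Mean RPKM was 2.01 ± 0.545 (SD, n = 3). The coefficient of variation, 27.2%, was close to the 23.5% that counting error gives for read pairs.

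Cpeb3, the neuronal regulator of translation, was the one gene of the 5 whose groups overlapped. It lies on chromosome 19 from 37021291 to 37208601, minus strand. In replicates 1, 2 and 3 of METTL3-RIP it had 0, 0.154 and 0.137 RPKM, from 0, 11 and 12 reads, and 0 in each input library. Replicate 1 thus could not be told from input, and a level below 0.0430 RPKM (3 reads) was not detectable there. Mean RPKM was 0.0971 ± 0.0846 (SD, n = 3), and it was 0.146 without replicate 1. Cpeb3 stood at the edge of the table, as its second-highest library had 1.02 RPM, the lowest such value of all genes with whole reads at the annotated length.

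**Figure D1:**
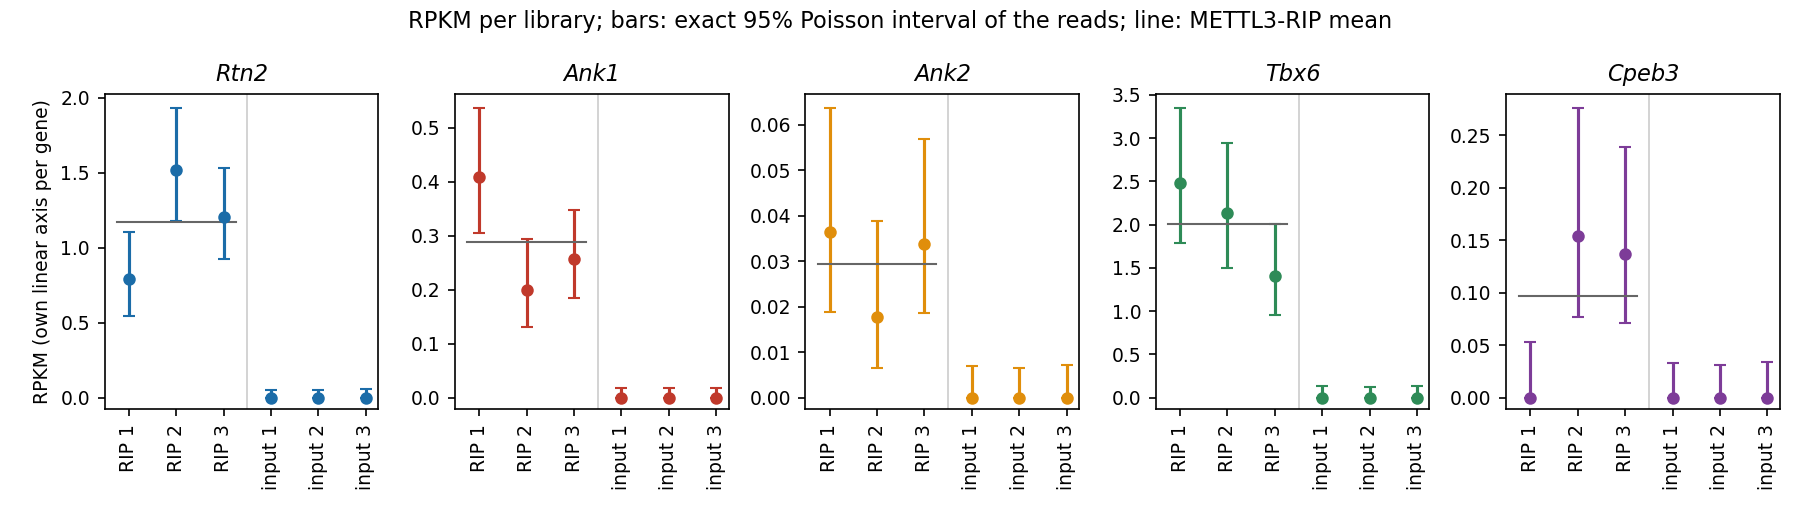
RPKM (linear axis, own scale for each gene) in the 3 METTL3-RIP and 3 input libraries, with exact 95% Poisson intervals of the reads as bars and the METTL3-RIP mean as a line. Input is 0 throughout, METTL3-RIP replicate 1 is lowest for Rtn2 and highest for Ank1, and Cpeb3 is at 0 in METTL3-RIP replicate 1.

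By mean METTL3-RIP RPKM, which is a level per length, the order was Tbx6, Rtn2, Ank1, Cpeb3 and Ank2. Neighbours in this order were not all apart. The lowest Tbx6 value, 1.41 RPKM, lay under the highest Rtn2 value, 1.52 RPKM, and the Cpeb3 values of 0 to 0.154 RPKM enclosed those of Ank2. All values of Rtn2 exceeded all values of Ank1, and all values of Ank1 exceeded those of Cpeb3 and Ank2. The 5 genes had no common order of libraries, with the highest METTL3-RIP value in replicate 1 for Ank1, Ank2 and Tbx6 and in replicate 2 for Rtn2 and Cpeb3.

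The 5 genes fell into 2 classes by the reads behind them. Rtn2, Ank1 and Tbx6 had 166, 119 and 109 METTL3-RIP reads in all. Of 233 listed protein-coding genes with 101 to 200 METTL3-RIP reads, these 3 (1.29%) were the ones without an input read, and the median of that class was 16 input reads. No listed protein-coding gene with over 200 METTL3-RIP reads was without input reads. Ank2 and Cpeb3 had 32 and 23 METTL3-RIP reads. Of 81 protein-coding genes with at most 50 METTL3-RIP reads, 38 (46.9%) had no input read, and the median was 1 input read, so that 0 input reads was a common value at this depth. The rule fixed the input values of the 5 genes, so these shares are a description.

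**Figure D2:**
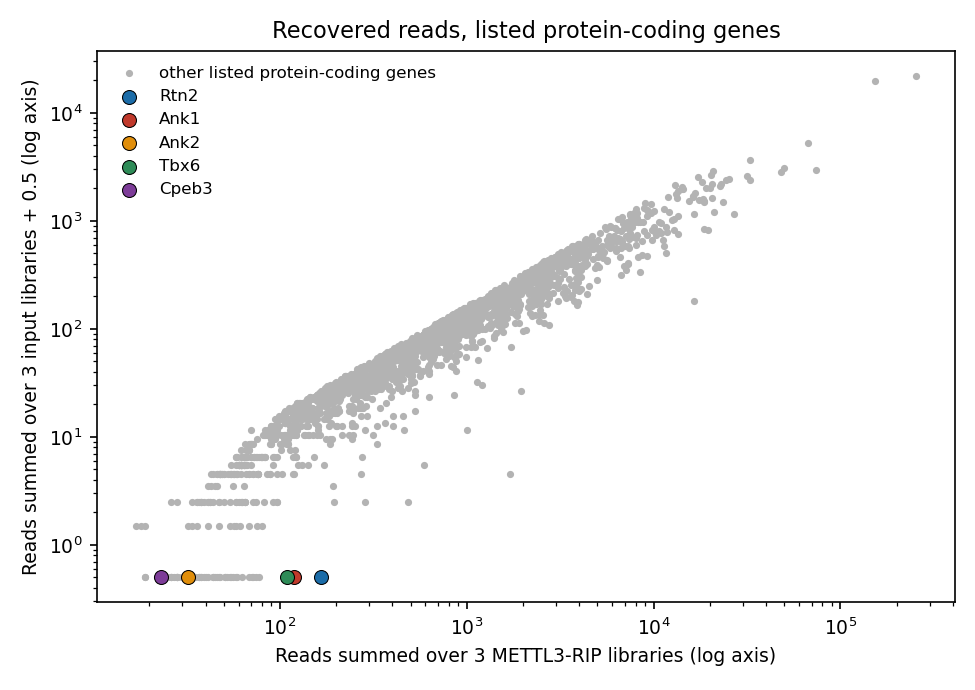
Reads summed over METTL3-RIP libraries against reads summed over input libraries plus 0.5 (log axes) for listed protein-coding genes, with the 5 genes in colour. Rtn2, Ank1 and Tbx6 are the points farthest to the right on the line of genes with 0 input reads, at 166, 119 and 109 METTL3-RIP reads.

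A fold over input has no value for genes at 0, and was bounded with a floor of 3 reads in each input library. Mean METTL3-RIP level over this floor was 27.3-fold for Rtn2, 19.9-fold for Ank1, 18.4-fold for Tbx6, 5.24-fold for Ank2 and 3.67-fold for Cpeb3. These bounds allow for counting error in input only, and not for the spread of METTL3-RIP. Where both reads of a pair were counted, 3 reads stand for fewer RNA fragments, so the bounds may be too high. For the 2487 listed genes with input reads, the ratio of mean RPKM had a median of 14.4 and was at least 9.14. The bounds of Rtn2, Ank1 and Tbx6 thus exceeded the ratios of 86.3%, 74.2% and 69.3% of these genes. As the rule set the inputs of the 5 genes to 0, each bound follows from its METTL3-RIP level and the floor. Its place among other genes is therefore a description. The bounds of Ank2 and Cpeb3 lay under the lowest ratio in the table. With the floor of 3 reads taken over the inputs together they were 15.7 for Ank2, above the table median, and 11.0 for Cpeb3, between the lowest ratio and the median, so their place among listed genes depended on the floor. Put another way, at the median ratio of the table the inputs together would have held 17.1 reads of Rtn2, 12.5 of Ank1, 11.6 of Tbx6, 3.29 of Ank2 and 2.30 of Cpeb3. These folds hold for the deposited scaling, in which nearly all listed genes are higher in METTL3-RIP. When libraries were scaled to the same median RPKM the bounds became 1.68, 1.22 and 1.12 for Rtn2, Ank1 and Tbx6 and 0.325 and 0.229 for Ank2 and Cpeb3, and bounds under 1 set no direction.

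**Figure D3:**
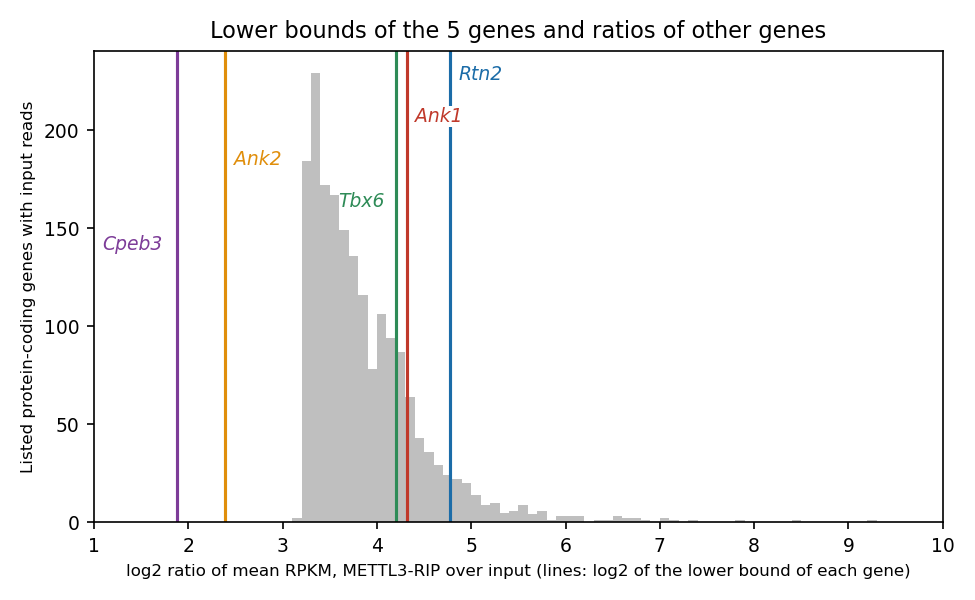
Histogram of the log2 ratio of mean RPKM in METTL3-RIP over input for 1848 listed protein-coding genes with input reads, with a line at the log2 of the lower bound of each of the 5 genes (floor of 3 reads per input library). The lines of Cpeb3 and Ank2 lie left of all other genes, and those of Tbx6, Ank1 and Rtn2 right of the median, 3.71.

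On the log2(RPKM + 1) scale, METTL3-RIP exceeded input by 1.10 for Rtn2, 0.36 for Ank1, 0.04 for Ank2, 1.57 for Tbx6 and 0.13 for Cpeb3, with a median of 1.72 over the table. The added 1 RPKM outweighs the values of Ank1, Ank2 and Cpeb3, so these differences understate any fold. The METTL3-RIP and input values did not overlap in 4 of the 5 genes, against 99.8% of listed genes. The fit across the whole table (limma, adjusted p-value threshold 0.05) called 99.9% of listed genes higher in METTL3-RIP, and 3 of the 5 (Rtn2, Ank1 and Tbx6). As the rule used this contrast, neither count is a test of the 5 genes and nothing is read from them. The count also moved with the scaling. All 5 were called higher with a pseudocount of 0.1 RPKM or with limma voom. After centring each library on its median, 4 were called lower (Rtn2, Ank1, Ank2 and Cpeb3). After quantile normalization Rtn2 and Tbx6 were called higher and Ank2 and Cpeb3 lower. Both of these settings shift values of log2(RPKM + 1), so that an input at 0 does not stay at 0. Lower there is thus relative to the other listed genes. With 0 in all inputs, none of the 5 had fewer reads in METTL3-RIP than in input.

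The other 50 protein-coding genes without input reads set the scale for the 5. Their mean METTL3-RIP RPKM ranged from 0.0844 to 2.08 with a median of 0.322, and their METTL3-RIP reads from 19 to 77 in all with a median of 37.5. By reads Rtn2, Ank1 and Tbx6 took places 1, 2 and 3 of the 55 genes, while Ank2 and Cpeb3 took places 36 and 51. By RPKM the places of Tbx6, Rtn2, Ank1, Cpeb3 and Ank2 were 2, 4, 31, 52 and 55. The highest of the other genes were Gm10721, Pou5f2, Krtcap3, Smim6 and Nnat, at 2.08, 1.73, 1.08, 0.903 and 0.806 RPKM, and the lowest were Ppp1r9a, Cacna1d, Noct, Slc12a5 and Srcin1, at 0.0844, 0.0924, 0.103, 0.108 and 0.132 RPKM. Just outside the rule, 15 protein-coding genes had a single input read in all. Of these, Col27a1, Map3k9 and Myh11 had the lowest mean METTL3-RIP RPKM, 0.0784, 0.106 and 0.164, beside 0.0971 for Cpeb3. Exon length, and so read number, is uncertain for Cacna1d, Map3k9 and Myh11.

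**Figure D4:**
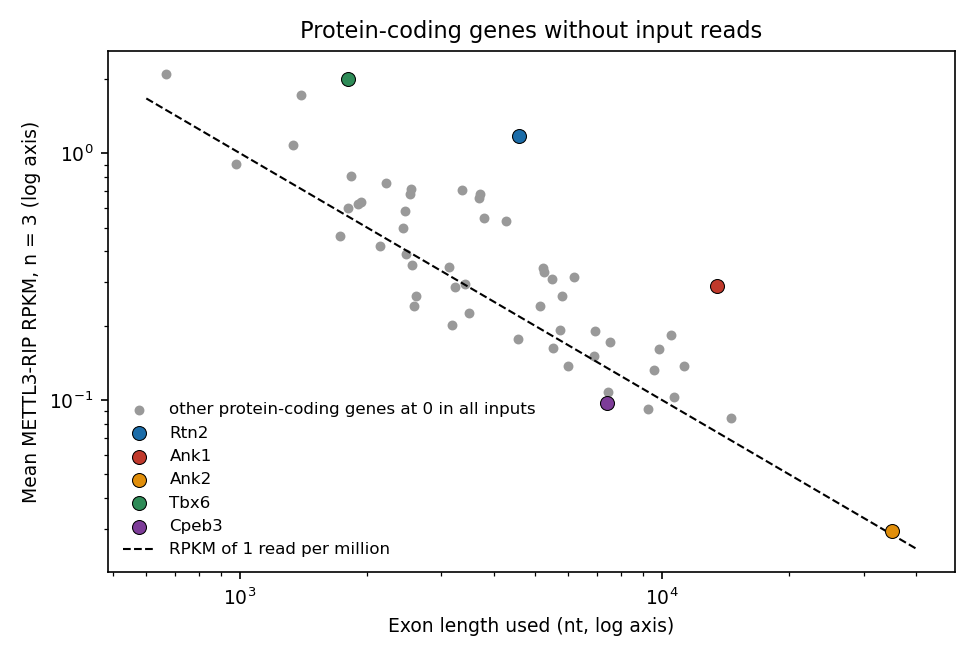
Mean METTL3-RIP RPKM (n = 3) against exon length (log axes) for the 55 protein-coding genes without input reads, with a dashed line at the RPKM that corresponds to 1 RPM. Rtn2, Ank1 and Tbx6 lie well above the line, at 1.17, 0.288 and 2.01 RPKM, and Ank2 and Cpeb3 lie close to it, at 0.0294 and 0.0971 RPKM.

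Listed relatives and partners were then examined for each gene. A gene outside the table has no value here, so absence from it says nothing of its level. Among ankyrins, Ank1 and Ank2 were listed and Ank3 was not. Of 18 genes of the spectrin membrane skeleton, to which ankyrins bind, 7 were listed, and all 7 passed the threshold as higher in METTL3-RIP, beside 99.9% of all genes. The median difference of the 7 was 0.73 on the log2(RPKM + 1) scale, against 1.72 over the table. Sptb, a spectrin of red blood cells, was low like Ank1. RPKM of Sptb was 0.841, 0.719 and 0.606 in METTL3-RIP replicates 1, 2 and 3 and 0.0324, 0.0309 and 0.0448 in input. Sptb thus was highest in replicate 1, as Ank1 was, but lowest in replicate 3. The spectrins of other cells, Sptan1 and Sptbn1, were far higher, with mean METTL3-RIP RPKM of 50.3 and 58.7 (input, 2.64 and 3.22). Sptbn5, of uncertain length, also had no input read, with a mean METTL3-RIP RPKM of 0.201, and Add1, an adducin, had 26.2 (input, 2.43). Dmtn, which bundles actin at the red cell membrane, had a mean RPKM of 0.410 in METTL3-RIP and 1 input read, although its exon length and so its read number are uncertain.

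Red blood cell markers were counted beside Ank1, since the spleen holds red blood cells and their precursors. Of 12 markers 2 were listed, among them Sptb, and the globin genes Hba-a1 and Hbb-bs, Alas2 and Klf1 were not. The part of red blood cell RNA in the Ank1 value was not tested. None of 10 neuronal markers was listed, and of the markers of skeletal muscle and heart 1 of 10 (Ttn) and 1 of 8 (Myh6) were. Ttn summed to 0.147 to 0.273 RPKM in METTL3-RIP and 0.0157 to 0.0256 RPKM in input, and Myh6, of uncertain length, to 0.107 to 0.262 RPKM in METTL3-RIP and 0 in input. None of 10 NK cell markers was listed, nor any of 5 markers each of B cells, macrophages and T cells. The labelled cell type thus could not be checked with these markers, and other listed genes of these cells were not examined. In such bulk libraries, a few cells with much of a transcript and many cells with little of it cannot be told apart.

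Of 16 reticulons and other shapers of ER tubules, Rtn2 alone was listed. Rtn1, Rtn3 and Rtn4, the atlastins Atl1, Atl2 and Atl3 and the REEP genes have no value here. Of 18 T-box factors, Tbx6 and Mga were listed. Mga, a broadly expressed repressor with a T-box, had a mean RPKM of 6.19 in METTL3-RIP and 0.620 in input. The T-box factors of NK cells, Tbx21 and Eomes, were not listed. Of 7 presomitic mesoderm markers, Dll1 was listed, a Notch ligand expressed with Tbx6 in the embryo and also in other tissues. Dll1 had RPKM of 1.82, 2.44 and 1.63 in METTL3-RIP replicates 1, 2 and 3 and 0.125, 0.119 and 0.129 in input. Per length Tbx6 was at a like METTL3-RIP level, but Dll1 rests on more reads, 252 in METTL3-RIP and 24 in input over 4219 nt of exons, against 109 METTL3-RIP reads over 1804 nt for Tbx6, whose 0 in input was set by the rule.

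Of 25 CPEB proteins and regulators of mRNA tails, 6 were listed, and the 5 other than Cpeb3 passed the limma threshold as higher in METTL3-RIP, beside 99.9% of all genes. The median difference of the 6 was 2.15 on the log2(RPKM + 1) scale, against 1.72 over the table. The paralogues Cpeb2 and Cpeb4, which bind like elements in messenger RNA, lay above Cpeb3. RPKM of Cpeb2 was 1.44, 1.20 and 0.845 in METTL3-RIP replicates 1, 2 and 3 and 0.0336, 0.0640 and 0.0522 in input, and its ratio of means was 23.3. Cpeb4 had a mean RPKM of 2.99 in METTL3-RIP and 0.253 in input, a ratio of 11.8. Every METTL3-RIP value of Cpeb2 and Cpeb4 exceeded every value of Cpeb3. Cnot1 and Cpsf1, which act in deadenylation and cleavage of messenger RNA, had mean METTL3-RIP RPKM of 13.3 and 7.88 (input, 1.16 and 0.447), the length of Cpsf1 being uncertain. Cpeb1 was not listed.

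**Figure D5:**
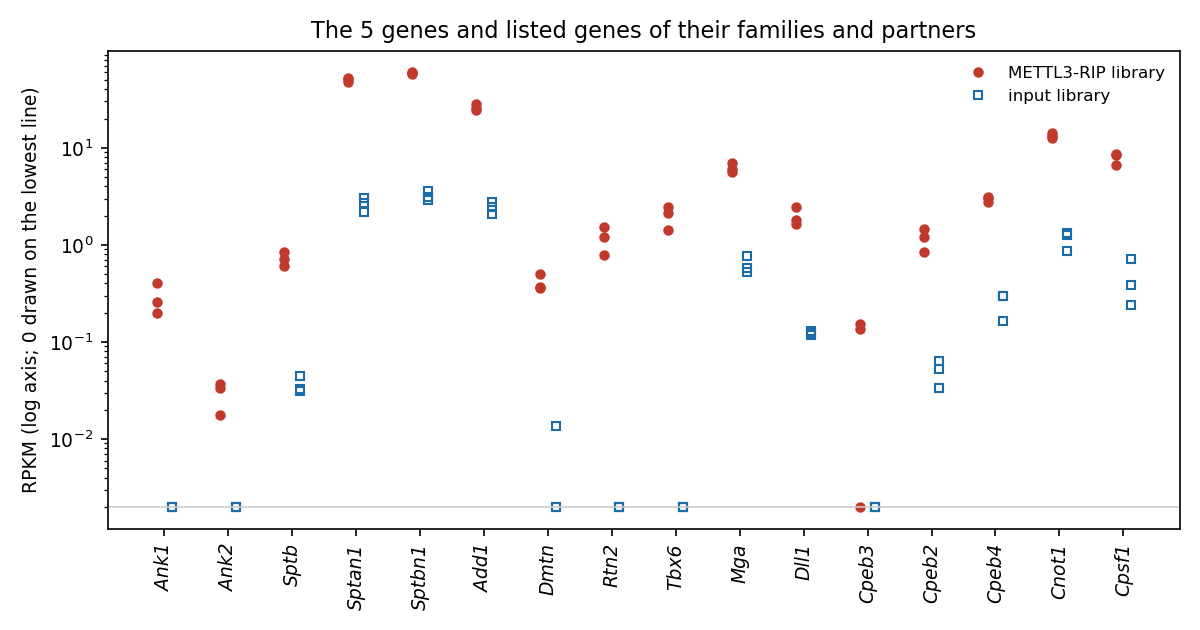
RPKM (log axis, 0 drawn on the lowest line) in each METTL3-RIP and input library for the 5 genes and listed relatives or partners. The 5 genes have all input points on the lowest line, Cpeb2 and Cpeb4 lie above Cpeb3, and Sptb lies near Ank1, far below Sptan1 and Sptbn1.

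Listed genes most like each of the 5 were found by Euclidean distance of log2(RPKM + 1) over the 6 libraries, a measure set mostly by level. Among the nearest were Gm43721 and Plekhm3 for Rtn2 (distances 0.20 and 0.20), Celf3 and Dsp for Ank1 (0.07 and 0.08), Col27a1 for Ank2 (0.12), Gm44752 and Gm19353 for Tbx6 (0.24 and 0.25) and Slc12a5 for Cpeb3 (0.05). Slc12a5, a chloride transporter of neurons, came closest, with RPKM of 0.0143, 0.140 and 0.171 in METTL3-RIP replicates 1, 2 and 3 and 0 in input. Like Cpeb3 it was all but missing from METTL3-RIP replicate 1. Of these genes, Celf3, Gm19353 and Slc12a5 had no input read. Plekhm3 had 31 input reads at a METTL3-RIP level near that of Rtn2, 1.09 RPKM, over longer exons.

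The exons of the 5 genes were compared with other loci. On the same strand no exon base was shared with another gene. On the other strand 6.37% of the Ank1 exon bases (862 nt) lay in exons of the antisense gene Gm15816, with 0.520% in Ank2, 1.56% in Cpeb3 and none in Rtn2 or Tbx6. No gene that overlaps one of the 5 was listed, including Mir486 within Ank1 and A330032B11Rik opposite Cpeb3. Use of strand in counting is not given in the sources used here, so antisense reads cannot be told apart. The share of exonic 31-mers found again elsewhere in the genome was 10.9% in Rtn2, 1.15% in Ank2, 0.720% in Cpeb3, 0.231% in Ank1 and 0% in Tbx6. In Rtn2 all 463 repeated 31-mers lay outside the exons of the principal transcript, which held 1990 of 4585 nt, so part of the Rtn2 level is uncertain. For Rtn2 the mean METTL3-RIP level would be 2.70 RPKM if all its reads came from that transcript.

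In length the 5 genes had little in common. Their exon unions ran from 1804 nt in Tbx6 to 35004 nt in Ank2, and the middle one, 7414 nt in Cpeb3, was near the median of listed protein-coding genes, 6865 nt. GC content of the principal transcript was 61.2% in Rtn2, 59.1% in Tbx6, 57.1% in Ank1, 49.2% in Ank2 and 47.7% in Cpeb3, against a median of 53.0% in listed and 49.2% in all protein-coding genes. The 3 genes with more METTL3-RIP reads were thus the GC-richer ones, a description of 5 genes. GGACT occurred 2.01 times per kilobase in Rtn2, 1.68 in Ank2, 1.47 in Ank1, 1.16 in Tbx6 and 1.02 in Cpeb3, against medians of 1.12 in listed and 1.02 in all protein-coding genes. Of 24 matches in Ank2, 18 lay in the coding sequence, and both matches in Tbx6 did, whereas 4 of 6 in Cpeb3 lay after the stop codon.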

How the data were processed

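RNA of 3 METTL3-RIP and 3 input libraries, grouped by their titles, had been sequenced with paired-end reads from stranded libraries. Per the submitters' processing notes and methods, reads were trimmed with Trimmomatic 0.36 and mapped to GRCm38 with STAR 2.5.3a. The gene counter, annotation and use of strand are not given in the sources used here. The authors deposited 1 table of gene values per library, inferred here to be RPKM, of genes nearly all higher in METTL3-RIP. It also holds the authors' log2 fold change and p-value, which were not used.

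Totals and reads were recovered from RPKM and GENCODE M21 exon unions (82.6% to 84.3% of values whole within 0.005), and for other genes from the shortest length giving whole reads. limma 3.58.1 (R 4.3.3; lmFit and eBayes with trend, two-sided, Benjamini-Hochberg over 2652 genes) compared log2(RPKM + 1) without filter. It was tested on simulated data in which most genes had no group difference. In the deposited table nearly all genes were higher in METTL3-RIP, so that test does not cover this setting. p-values measure the spread between libraries, which may be technical.

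Members and lists were chosen with earlier results of these data known. Named genes were the 5, listed genes of their lists, the 2 nearest by distance, the 5 highest and lowest other protein-coding genes without input reads, the 3 lowest with 1 input read, and listed genes overlapping the 5 (there were none). Genes of the lists that were not in the table, and Gm15816, Mir486 and A330032B11Rik, were named after values were seen. Some genes that these rules name are not reported here. Alternatives covered pseudocount, filter, scaling, trend, voom, block, left-out libraries, floor and length.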

Additional observations from a re-analysis of the deposited data

How the results depend on the processing

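The 5 genes rest on 23 to 166 METTL3-RIP reads and on 0 input reads, so depth limits Ank2 and Cpeb3 most. Of 114 values under alternatives, 84 stayed near the main value and 30 moved. For genes past the threshold, near refers to their number and not to direction. Counts of the 5 after median centring and quantile normalization were thus near, although 4 and 2 genes were lower. The 2163 genes past the threshold after median centring also counted as near, though 1119 of them were lower. Genes past the threshold numbered 2650, 2643 with the replicate block, 322 after quantile normalization and 2629 to 2644 with a library left out. Of the 5, whose count is a description and no test, 3 passed, 5 at a pseudocount of 0.1 RPKM and 5 with limma voom on recovered reads, and 3 to 4 with a library left out, Cpeb3 passing without METTL3-RIP replicate 1, its library at 0. Centring each library on its median moved the median difference of the table from 1.72 to -0.04 and turned direction, with 1044 genes higher and 1119 lower past the threshold, among these Rtn2, Ank1, Ank2 and Cpeb3 (differences of -0.66, -1.40, -1.72 and -1.63). Quantile normalization left Rtn2 and Tbx6 higher and Ank2 and Cpeb3 lower past the threshold, and of all genes 170 higher and 152 lower. Both settings balance directions by construction in a table chosen to be higher. They also shift the log2(RPKM + 1) value of an input at 0, which scaling of RPKM leaves at 0. For the 5 genes, lower under these settings does not mean fewer reads in METTL3-RIP than in input.

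With the floor of 3 reads taken over the inputs together, bounds rose to 82.1-fold for Rtn2, 59.7 for Ank1, 15.7 for Ank2, 55.4 for Tbx6 and 11.0 for Cpeb3, and with libraries scaled to the same median they were 1.68, 1.22, 0.325, 1.12 and 0.229. With a library left out, bounds ranged from 23.2 to 31.8 for Rtn2, 15.7 to 22.9 for Ank1, 4.61 to 6.27 for Ank2, 16.3 to 21.2 for Tbx6 and 2.59 to 5.51 for Cpeb3, the highest for Cpeb3 without METTL3-RIP replicate 1. Mean levels then ranged from 0.995 to 1.36, 0.228 to 0.333, 0.0258 to 0.0352, 1.77 to 2.30 and 0.0685 to 0.146 RPKM, and summed reads, which fall by construction, from 99 to 132, 67 to 93, 18 to 26, 67 to 79 and 11 to 23. On the length of the principal transcript, chosen after seeing the data, levels were 2.70 RPKM for Rtn2, 0.479 for Ank1 and 0.0719 for Ank2. The shortest length that gives whole reads left 16 reads of Ank2 in place of 32. By the methods a lysate gave both input and immunoprecipitate, but no source ties replicate numbers to a lysate. Deviations from group means correlated by -0.02, -0.02 and 0.08 for numbers 1, 2 and 3, and 1 of 3 METTL3-RIP libraries correlated best with the input of its own number. The replicate block changed no call of the 5.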
